A study of Mus musculus with 20 samples.

Results

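A set of 10 genes that mark endothelial cells was followed in bone marrow and kidney of mice given oxaliplatin, a platinum drug for colorectal cancer. They were taken by symbol from both count tables, each symbol matched 1 row, and they make up 10 of the 55486 genes of the series. Each tissue had 5 control and 5 oxaliplatin-treated libraries, 20 in all, labelled as separate biological replicates. The mice were C57BL/6, 10 weeks old when dosing began. Over 8 weeks, controls were injected intraperitoneally with 5% dextrose and treated mice with oxaliplatin dissolved in it, at 10 mg/kg each week. Femur and tibia gave the marrow, which was collected 6 days past the final injection; how the kidney was taken is not given in the sources used here. No sort or gate preceded RNA extraction, so these are bulk tissues. More endothelial cells, more RNA per endothelial cell and less RNA from other cells cannot be told apart in them. Nor can RNA of these genes that comes from other cell types be set apart.

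Endothelial cells line the inside of blood vessels. Pecam1 and Cdh5 (VE-cadherin) hold neighbouring cells together at their junctions. Kdr, Flt1 and Flt4 are the tyrosine kinase receptors of the VEGF family: Kdr carries most of the growth signal of VEGF-A, Flt1 binds VEGF-A tightly and signals weakly, and Flt4 is the receptor of VEGF-C and VEGF-D. Tek is the angiopoietin receptor, through which Angpt1 keeps vessels quiet. Eng (endoglin) is a co-receptor for BMP and TGF-beta ligands. Emcn (endomucin) is a sialomucin of veins and capillaries, Plvap forms the diaphragms of fenestrae and caveolae, and Stab2 is a scavenger receptor of sinusoids. In marrow the sinusoids are the venous vessels through which blood cells leave for the circulation, and in kidney the endothelium ranges from fenestrated glomerular and peritubular capillaries to the vasa recta of the medulla.

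In GRCm38, with the GENCODE M21 annotation, the junction genes lie as Pecam1 (ENSMUSG00000020717) at chr11:106654217-106750628 on the minus strand and Cdh5 (ENSMUSG00000031871) at chr8:104101625-104144511 on the plus strand. The receptors lie as Kdr (ENSMUSG00000062960) at chr5:75932827-75978458 on the minus strand, Flt1 (ENSMUSG00000029648) at chr5:147561604-147726011 on the minus strand and Flt4 (ENSMUSG00000020357) at chr11:49609263-49652739 on the plus strand, with Tek (ENSMUSG00000006386) at chr4:94739289-94874976 on the plus strand and Eng (ENSMUSG00000026814) at chr2:32646595-32682669 on the plus strand. The vessel-type genes are Emcn (ENSMUSG00000054690) at chr3:137341067-137432185 on the plus strand, Plvap (ENSMUSG00000034845) at chr8:71497765-71511752 on the minus strand and Stab2 (ENSMUSG00000035459) at chr10:86841198-87008025 on the minus strand.

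The promoters of 4 members are shown, chosen by whether they passed the thresholds given below. RefSeq's table for GRCm38.p6 matched 7 of the 10 members (Kdr, Flt1, Flt4, Tek, Emcn, Eng and Stab2); Pecam1, Cdh5 and Plvap were not among them. Each sequence covers the 250 bases before the RefSeq start site, 5′ to 3′ on the gene's strand. Flt1 was higher in both tissues (chr5:147726012-147726261, minus strand), Flt4 and Emcn were higher in marrow (chr11:49609429-49609678 and chr3:137340828-137341077, plus strand), and Tek passed the threshold in neither tissue (chr4:94739039-94739288, plus strand). Capitals mark AGGAAG or its reverse complement CTTCCT, a core bound by ETS factors, the family of Erg, Fli1 and Ets1.
Flt1: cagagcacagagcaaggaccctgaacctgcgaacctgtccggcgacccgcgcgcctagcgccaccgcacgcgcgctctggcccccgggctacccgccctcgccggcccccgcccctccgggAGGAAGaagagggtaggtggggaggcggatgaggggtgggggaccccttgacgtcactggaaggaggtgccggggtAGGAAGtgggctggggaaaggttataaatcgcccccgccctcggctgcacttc
Emcn: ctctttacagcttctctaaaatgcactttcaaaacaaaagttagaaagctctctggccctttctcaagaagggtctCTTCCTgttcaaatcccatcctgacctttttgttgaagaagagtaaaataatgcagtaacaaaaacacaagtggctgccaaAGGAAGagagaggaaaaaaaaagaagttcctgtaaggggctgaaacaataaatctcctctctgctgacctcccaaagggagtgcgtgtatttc
Flt4: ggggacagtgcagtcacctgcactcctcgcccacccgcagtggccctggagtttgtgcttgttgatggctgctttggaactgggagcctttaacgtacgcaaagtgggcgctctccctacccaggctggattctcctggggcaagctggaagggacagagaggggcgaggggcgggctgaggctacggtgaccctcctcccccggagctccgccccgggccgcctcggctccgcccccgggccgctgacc
Tek: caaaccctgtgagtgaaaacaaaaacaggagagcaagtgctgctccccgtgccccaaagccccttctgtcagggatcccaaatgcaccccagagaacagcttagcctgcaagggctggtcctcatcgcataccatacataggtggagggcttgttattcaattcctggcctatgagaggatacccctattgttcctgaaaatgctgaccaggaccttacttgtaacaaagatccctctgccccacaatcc

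Flt1 and Emcn each held AGGAAG 2 times in this window, and Flt4 and Tek held it 0 times. Among the 7 member promoters 4 held it (Flt1, Emcn, Eng and Stab2), against 29.5% of all 32851 promoters of the table cut to the same 250 bases. A further ETS core, CCGGAA, was in 1 of the 7 (Kdr) and in 12.0% of all promoters. AGATAA, bound by GATA factors, and ACGTG, the core of the hypoxia response element, were in 0 of the 7 and in 9.99% and 16.6% of all. Both strands were read for every motif and no match overlapped another. A match describes these letters only, and the RefSeq start of Flt4 lies 416 bases from the start of its gene in the annotation used for positions.

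Total counts were 31062858 to 39293176 in control marrow, 30660153 to 41140527 in oxaliplatin marrow, 24393007 to 28304953 in control kidney and 26314983 to 30925430 in oxaliplatin kidney. Markers followed the tissue labels: 5 proximal tubule genes summed to at least 11535 CPM (reads scaled to the size of the library) in every kidney library and to at most 4.63 CPM in marrow. All 10 endothelial genes were detected in every library and passed the filter on low counts in both tissues.

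The level of each gene per length was compared first, as CPM per kilobase of exon. In control marrow the order was Plvap (29.6 ± 4.65, SD, n = 5), Eng (23.5 ± 2.15), Stab2 (17.7 ± 1.42), Pecam1 (13.3 ± 0.994), Cdh5 (12.0 ± 1.31), Flt4 (7.10 ± 0.613), Kdr (6.96 ± 0.966), Tek (3.48 ± 0.546), Flt1 (1.85 ± 0.217) and Emcn (1.12 ± 0.137). The ranges of Plvap and Eng, of Pecam1 and Cdh5, and of Flt4 and Kdr overlapped, and the other neighbours in this order were apart. In control kidney Plvap (75.1 ± 3.98) and Eng (31.3 ± 2.64) again came first. Kdr, Tek, Pecam1, Emcn, Cdh5 and Flt1 followed between 9.09 and 5.68 CPM per kilobase, each overlapping the next, and Flt4 (2.77 ± 0.304) and Stab2 (1.06 ± 0.109) were apart at the bottom. Stab2, the sinusoidal receptor, stood among the highest members in control marrow and lowest in control kidney, while Emcn was lowest in marrow.

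In bone marrow, 5 of the 10 genes were higher after oxaliplatin and none was lower. A gene was called when its Benjamini-Hochberg adjusted p over all genes, from edgeR's quasi-likelihood test, was under 0.05 and its fold change beyond 1.5. Emcn, Cdh5, Plvap, Flt4 and Flt1 met both, against a background of 11.6% of the 22363 genes tested that were called higher and 23.3% called in either direction. Eng and Kdr passed the adjusted p and stayed under 1.5-fold, so that 7 of the 10 were higher by the adjusted p alone (16.3% of all genes), and Pecam1, Stab2 and Tek did not pass it. The median log2 fold change of the 10 was 0.72, against -0.04 over all genes tested. In 6 of the 10 every oxaliplatin library lay above every control library, where 11.4% of all tested genes did so.

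Among the VEGF receptors, Flt4 was the steadiest. Its CPM in marrow was 62.0, 55.3, 54.8, 65.6 and 54.6 in controls and 147, 106, 110, 124 and 105 after oxaliplatin. The groups did not overlap, and the lowest treated library was well above the highest control. The log2 fold change was 1.02 ± 0.11 (SE; adjusted p = 1.33e-05, edgeR). Flt1 was at 23.8, 20.4, 27.8, 27.0 and 25.6 CPM in controls and at 47.6, 35.9, 39.5, 49.9 and 54.2 CPM in treated mice. These groups were also apart, with a log2 fold change of 0.87 ± 0.13 (adjusted p = 0.000179, edgeR). Kdr was at 68.5, 55.4, 62.2, 74.5 and 53.9 CPM in controls against 123, 75.5, 74.1, 103 and 71.1 CPM. Only oxaliplatin mice 1, 2 and 4 were above all controls for Kdr, and its log2 fold change was 0.51 ± 0.16 (adjusted p = 0.0255, edgeR), short of 1.5-fold. Without oxaliplatin mouse 5 it was 0.61 (adjusted p = 0.0076, edgeR), and without mouse 1 it was 0.37 (adjusted p = 0.0574, edgeR).

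Tek, the angiopoietin receptor, stood apart from the VEGF receptors. Its CPM was 15.6, 14.9, 18.3, 19.8 and 13.4 in control marrow and 12.0, 11.4, 13.9, 15.2 and 9.84 in oxaliplatin marrow. The groups overlapped, with 3 treated libraries below every control, and the log2 fold change of -0.39 ± 0.15 did not pass (adjusted p = 0.0544, edgeR). Eng was at 94.5, 88.2, 103, 105 and 85.4 CPM in controls and at 159, 139, 126, 159 and 122 CPM in treated mice. Eng did not overlap between groups, and its log2 fold change of 0.57 ± 0.10 passed the adjusted p (0.00085, edgeR) just under the 1.5-fold limit. It was past that limit in DESeq2 (0.61) and without control mouse 3 or 4 or oxaliplatin mouse 3 or 5 (0.60 to 0.65, edgeR).

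The junction genes were split. Cdh5 was at 52.5, 46.5, 49.9, 58.5 and 44.5 CPM in control marrow and at 111, 65.9, 90.4, 191 and 81.5 CPM after oxaliplatin. All treated libraries were above all controls, and mouse 4 was far above the rest of its group. The log2 fold change was 1.10 ± 0.24 (adjusted p = 0.00372, edgeR), and 0.79 without oxaliplatin mouse 4 (adjusted p = 0.00122, edgeR). Pecam1 was at 85.2, 72.7, 81.6, 89.2 and 84.1 CPM in controls and at 112, 77.4, 91.1, 145 and 106 CPM in treated mice. Oxaliplatin mouse 2 fell among the controls for Pecam1, and the log2 fold change of 0.36 ± 0.14 did not pass (adjusted p = 0.0658, edgeR). Pecam1 passed the adjusted p in DESeq2 (0.40, adjusted p = 0.0340), still under 1.5-fold. It also passed with hemoglobin genes left out of the scaling (0.39, adjusted p = 0.0460, edgeR). With at least 10 counts required in every library it did not (adjusted p = 0.0687, edgeR).

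The vessel-type genes Plvap and Emcn were higher in marrow. Plvap was at 59.0, 51.0, 58.2, 74.0 and 51.6 CPM in controls and at 149, 90.4, 121, 173 and 90.0 CPM after oxaliplatin, a log2 fold change of 1.08 ± 0.18 (adjusted p = 0.000529, edgeR). Emcn, the least abundant member in control marrow, was at 5.82, 5.27, 5.58, 6.90 and 6.82 CPM in controls and at 14.8, 10.4, 13.5, 17.7 and 10.4 CPM in treated mice, a log2 fold change of 1.14 ± 0.17 (adjusted p = 0.000202, edgeR). Neither gene overlapped between groups. Stab2, the sinusoidal scavenger receptor, was at 168, 142, 151, 168 and 145 CPM in controls and at 281, 175, 129, 258 and 221 CPM in treated mice. Oxaliplatin mouse 3 was below every control for Stab2 while the other treated mice were above them, and the log2 fold change of 0.46 ± 0.17 did not pass (adjusted p = 0.0595, edgeR). Without mouse 3 it was 0.60 (adjusted p = 0.00149, edgeR), past both thresholds. With all mice, Stab2 passed the adjusted p in DESeq2 (0.49, adjusted p = 0.0220), under 1.5-fold. With at least 10 counts required in every library it did not (adjusted p = 0.0641, edgeR).

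**Figure D1:**
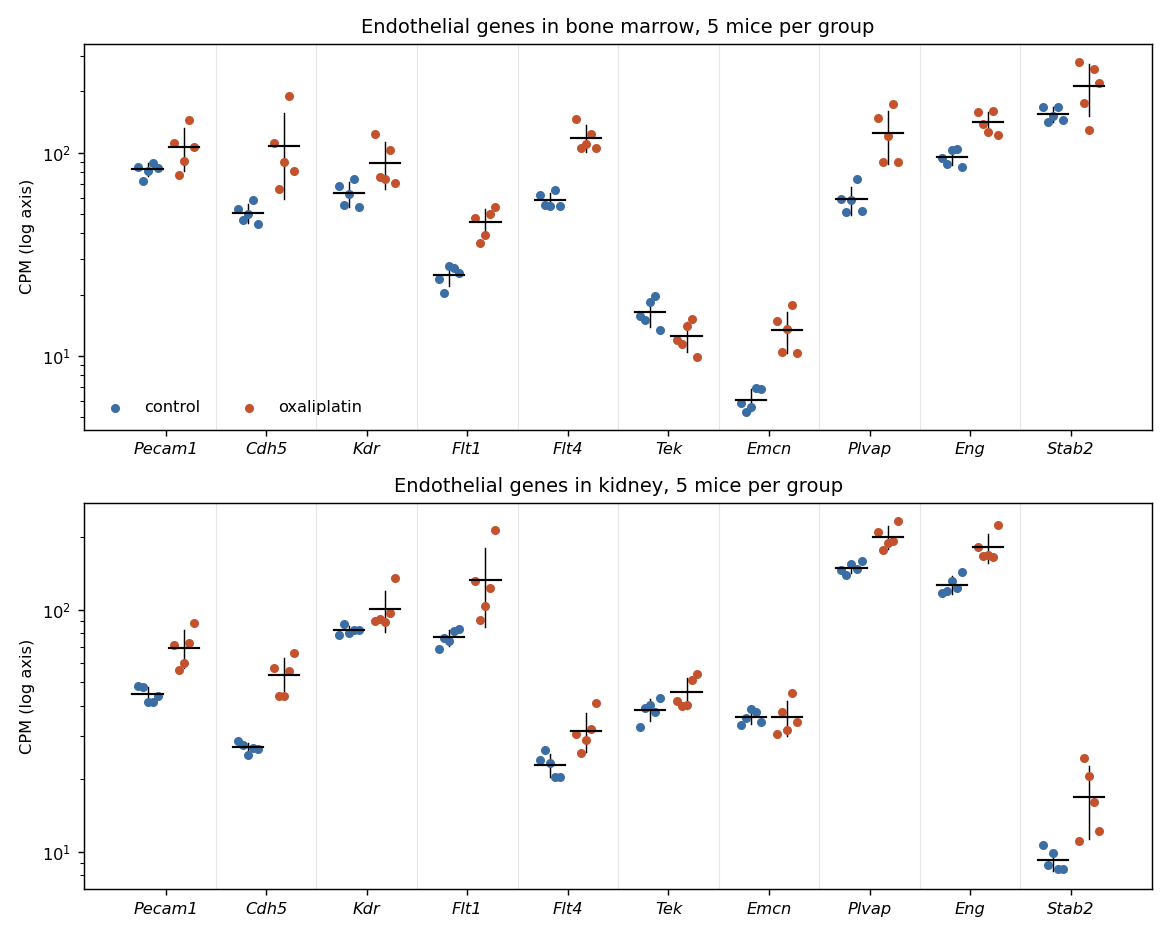
CPM of each endothelial gene on a log axis in bone marrow (top) and kidney (bottom), 1 point per mouse, with the mean as a horizontal bar and the SD as a vertical line (n = 5 per group). In marrow 6 genes, and in kidney 7, have every oxaliplatin point above every control point, while Tek in marrow and Emcn in kidney overlap.

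In kidney, 4 of the 10 genes were higher after oxaliplatin and none was lower. Cdh5, Stab2, Flt1 and Pecam1 were called, against 7.68% of the 19293 genes tested that were called higher and 11.5% called in either direction. Eng, Flt4, Plvap and Kdr passed the adjusted p under 1.5-fold, so that 8 of the 10 were higher by the adjusted p alone (14.4% of all genes), and Tek and Emcn did not pass it. The median log2 fold change was 0.49, against 0.02 over all genes tested. In 7 of the 10 the treated libraries all lay above the controls, against 9.69% of all genes.

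Cdh5 had the largest fold change of the members in kidney. Its CPM was 28.7, 27.6, 25.2, 26.7 and 26.6 in controls and 57.4, 44.1, 44.1, 55.6 and 66.4 after oxaliplatin. The groups were far apart, with a log2 fold change of 0.99 ± 0.10 (adjusted p = 5.02e-06, edgeR). Pecam1 was at 48.2, 48.1, 41.3, 41.3 and 44.1 CPM in controls and at 71.7, 56.1, 60.3, 72.7 and 87.7 CPM in treated mice, again without overlap. Its log2 fold change was 0.64 ± 0.10 (adjusted p = 0.000259, edgeR). Both junction genes were higher in kidney, and the tissue difference itself did not pass for either.

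Stab2 in kidney started low and rose unevenly. It was at 10.6, 8.84, 9.85, 8.45 and 8.50 CPM in controls and at 11.1, 24.4, 20.6, 16.1 and 12.2 CPM after oxaliplatin. Mice 2 and 3 were highest and mouse 1 was close to the controls, although no values overlapped. The log2 fold change was 0.87 ± 0.19 (adjusted p = 0.00474, edgeR). Mice 2 and 3 were also the treated mice with the lowest sum over all 10 members, 753 and 774 CPM, against 849 to 1099 CPM in the other treated kidneys.

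Of the VEGF receptors in kidney, Flt1 passed both thresholds with the widest spread. It was at 68.6, 76.5, 74.0, 81.3 and 82.9 CPM in controls and at 132, 90.8, 104, 123 and 213 CPM in treated mice, with mouse 5 far above the others. The log2 fold change of 0.79 ± 0.21 (adjusted p = 0.0201, edgeR) fell to 0.56 without oxaliplatin mouse 5 (adjusted p = 0.000471, edgeR), under 1.5-fold. Pecam1 also went to 0.56 without that library, so that 2 of the 10 members (Cdh5 and Stab2) were then called. Kdr was at 78.5 to 87.6 CPM in controls and at 89.8, 91.7, 89.2, 97.1 and 135 CPM after oxaliplatin. The Kdr groups did not overlap but the log2 fold change was small, 0.29 ± 0.10 (adjusted p = 0.0353, edgeR), and 0.17 without mouse 5 (adjusted p = 0.0511, edgeR), past 0.05. Flt4 was at 20.3 to 26.2 CPM in controls and at 30.5, 25.6, 28.9, 32.0 and 41.2 CPM in treated mice, a log2 fold change of 0.47 ± 0.11 (adjusted p = 0.00477, edgeR).

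Eng and Plvap, the most abundant members per length in kidney, moved by similar small amounts. Eng was at 117 to 143 CPM in controls and at 181, 166, 167, 165 and 223 CPM in treated mice, a log2 fold change of 0.51 ± 0.09 (adjusted p = 0.000363, edgeR). Plvap was at 139 to 159 CPM in controls and at 209, 176, 187, 192 and 233 CPM in treated mice, a log2 fold change of 0.42 ± 0.08 (adjusted p = 0.000608, edgeR). Neither overlapped between groups, and both stayed under 1.5-fold. Tek was at 32.6 to 43.2 CPM in controls and at 42.1, 40.2, 40.4, 51.2 and 54.2 CPM in treated mice, with a log2 fold change of 0.24 ± 0.10 that did not pass (adjusted p = 0.0706, edgeR). Emcn overlapped fully, at 33.5, 35.5, 38.8, 37.7 and 34.4 CPM in controls and at 30.6, 37.8, 31.8, 45.2 and 34.5 CPM in treated mice, with a log2 fold change of -0.00034 ± 0.09 (adjusted p = 0.998, edgeR).

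Reads of genes that overlap on opposite strands cannot be told apart here, since the strand setting of the counting is not given in the sources used here. Gtpbp3 overlaps Plvap and Fpgs overlaps Eng on the opposite strand. The log2 fold changes of these neighbours were 0.28 and 0.13 in marrow and -0.05 and -0.01 in kidney, and none passed (adjusted p from 0.0501 to 0.911, edgeR). The transcripts antisense to Cdh5 and Stab2 were at no more than 3.04 CPM on average in any group.

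The 2 tissues were then compared in a fit over all 20 libraries, in which the tissue by treatment term gives the log2 fold change in kidney minus that in marrow. That fit was filtered and scaled over all 20 libraries together. Its term can therefore differ somewhat from the difference of the changes printed above, which were scaled within each tissue. Cdh5 and Flt1 were called in both tissues, where 2.39% of the 17507 genes tested in both were called higher in both, and Eng, Kdr and Tek were called in neither. The term was called for 3 of the 10 members, Emcn, Plvap and Flt4, against 23.7% of all 24321 genes, and in all 3 the kidney change was the smaller (12.8% of all genes). This shared direction depended on the settings. With scaling by library size alone, or with at least 10 counts in every library, 3 were called and 1 had the kidney change above the marrow change. Emcn differed most, by -1.20 ± 0.20 (adjusted p = 8.1e-05, edgeR), with a marrow change of 1.14 and a kidney change near 0. The difference was -0.73 ± 0.21 for Plvap (adjusted p = 0.00982, edgeR) and -0.60 ± 0.16 for Flt4 (adjusted p = 0.00596, edgeR). Tek differed in the other direction, by 0.57 ± 0.18 (adjusted p = 0.0219, edgeR), under the 1.5-fold limit, so that 4 of the 10 passed the adjusted p alone (30.1% of all genes). For Cdh5, Flt1, Kdr, Eng, Pecam1 and Stab2 the term did not pass (adjusted p from 0.306 to 0.703, edgeR), with values from -0.27 ± 0.19 for Kdr to 0.36 ± 0.27 for Stab2, so the calls of Pecam1 and Stab2 in kidney alone did not amount to a difference between tissues that passed the test.

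**Figure D2:**
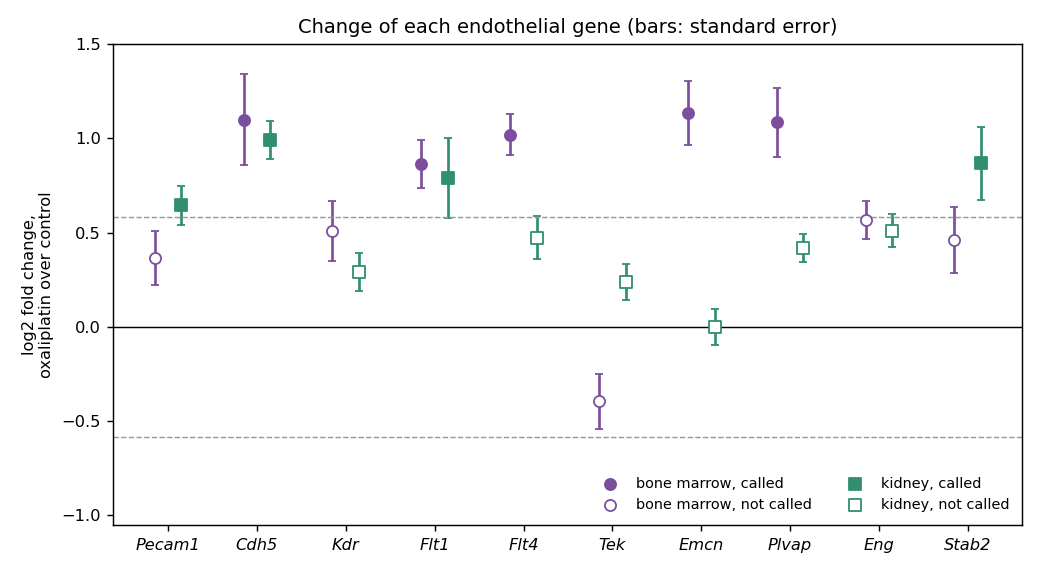
Log2 fold change of each endothelial gene, oxaliplatin over control, in bone marrow (circles) and kidney (squares), with the standard error as a bar; filled symbols were called and dashed lines mark 1.5-fold. Cdh5 and Flt1 are filled in both tissues, and the gap between tissues is widest for Emcn, at 1.14 in marrow and -0.00034 in kidney.

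Each of the other 9 members was also set against Cdh5 within its own library, as the difference of log2 CPM, which does not depend on how libraries are scaled. These 9 contrasts per tissue all share Cdh5. In marrow 4 of the 9 were lower relative to Cdh5 in every oxaliplatin mouse than in every control, where 44.9% of all other genes were. Tek differed most, from a mean of -1.62 ± 0.12 (SD, n = 5) in controls to -3.02 ± 0.44, and Pecam1, Stab2 and Kdr moved by -0.67, -0.59 and -0.52. In each of these 4 the exact two-sided permutation p was 0.00794, the smallest that the divisions of 10 mice into 5 and 5 can give. Eng moved by -0.44 (exact p = 0.0476), and Flt1, Flt4, Plvap and Emcn by -0.15 to 0.10 (exact p from 0.556 to 0.992), with wide ranges among treated mice. With the mean of Cdh5, Pecam1 and Tie1 as the reference, Tek was still lower (-1.06, exact p = 0.00794), Stab2 (-0.26, exact p = 0.381) and Kdr (-0.18, exact p = 0.294) did not pass, and Emcn (0.44, exact p = 0.00794) and Plvap (0.38, exact p = 0.0159) were higher.

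In kidney 7 of the 9 were lower relative to Cdh5 without overlap, where 66.6% of all other genes were. The shift was -0.98 for Emcn, -0.74 for Tek, -0.70 for Kdr, -0.56 for Plvap, -0.51 for Flt4, -0.47 for Eng and -0.34 for Pecam1, each with the exact two-sided p of 0.00794. Flt1 moved by -0.24 (exact p = 0.119) and Stab2 by -0.16 (exact p = 0.627). Against the mean of Cdh5, Pecam1 and Tie1, Emcn, Tek, Kdr and Plvap were still lower (-0.73 to -0.30, exact p = 0.00794 each), and Flt1 (0.013, exact p = 0.944) and Stab2 (0.092, exact p = 0.754) took the other sign. The share of all genes that moved against this mean was not computed in either tissue. The counts against Cdh5 alone were not far from the shares of all genes, and 0 members were higher relative to Cdh5 without overlap (1.14% of all genes in marrow and 0.513% in kidney).

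**Figure D3:**
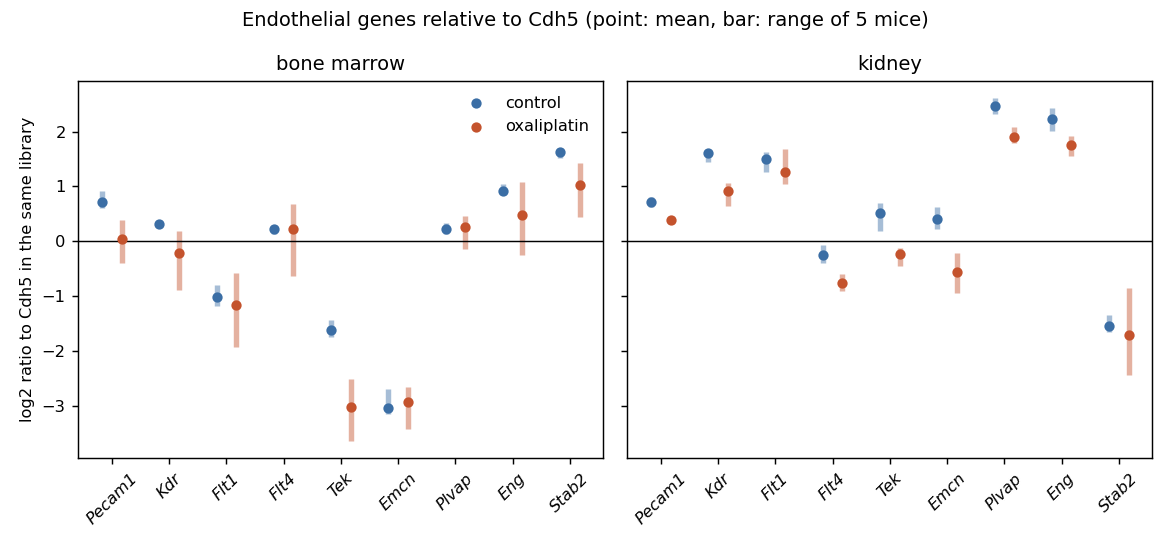
Log2 ratio of each endothelial gene to Cdh5 in the same library, with the mean as a point and the range of 5 mice as a bar, for control and oxaliplatin groups. Tek lies lower in treated marrow (-3.02 against -1.62) and Emcn lower in treated kidney (-0.57 against 0.41).

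The ligands of these receptors were read from a list of 10. Of these 10 ligand genes 8 were tested in each tissue, and Gdf2 and Bmp10, which bind the endoglin complex, were under the filter in both. In marrow 3 of the 8 were called higher and none lower (median log2 fold change 0.69), and in kidney 4 were called higher and none lower (median 0.57). Of all genes tested, 11.6% were called higher in marrow and 7.68% in kidney. In marrow Vegfc, a ligand of Flt4, was at 8.39, 9.17, 7.22, 9.12 and 9.59 CPM in controls and at 40.1, 25.9, 19.2, 27.3 and 24.3 CPM after oxaliplatin. This separation gave a log2 fold change of 1.65 ± 0.18 (adjusted p = 1.31e-05, edgeR). Vegfa was at 31.9 to 38.4 CPM against 54.7 to 92.7 CPM (0.98 ± 0.13, adjusted p = 7.98e-05, edgeR), and Angpt1, the activating ligand of Tek, at 24.8 to 36.7 CPM against 47.6 to 63.9 CPM (0.94 ± 0.13, adjusted p = 8.26e-05, edgeR). Angpt1 and its receptor Tek did not move together in marrow: the ligand rose, and Tek did not pass the test.

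In kidney the other Flt4 ligand, Vegfd, was at 5.00, 5.53, 5.49, 4.99 and 5.43 CPM in controls and at 21.1, 8.72, 12.7, 17.0 and 25.1 CPM in treated mice. All treated libraries were above all controls, with a log2 fold change of 1.68 ± 0.24 (adjusted p = 0.000432, edgeR). Angpt2, which can oppose Angpt1 at Tek, changed by 0.67 (adjusted p = 0.00157, edgeR), and the scarce Angpt4 and Pgf, both under 1 CPM on average in each kidney group, by 1.42 and 1.36. Vegfc in kidney was at 2.81 to 3.88 CPM in controls and 2.58 to 3.59 CPM in treated mice and did not pass (adjusted p = 0.54, edgeR). The tissue by treatment term was called for 3 of the 8 ligands (23.7% of all genes), Vegfc (-1.84, adjusted p = 1.7e-06, edgeR), Vegfd (1.96, adjusted p = 0.00013, edgeR) and Angpt1 (-0.79, adjusted p = 0.0051, edgeR).

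Of 11 co-receptors and signalling partners, 6 were called higher in marrow and none lower (median log2 fold change 0.66). Of all genes tested, 11.6% were called higher in marrow and 7.68% in kidney. The 4 with the largest change were Aplnr, the apelin receptor (1.54 ± 0.43, adjusted p = 0.0172, edgeR), Robo4, an endothelial guidance receptor (1.17 ± 0.20, adjusted p = 0.00055, edgeR), and the neuropilins Nrp2 (0.99) and Nrp1 (0.86), which present VEGF ligands to Flt4 and Kdr. Aplnr rested on mice 3 and 4, at 28.7 and 40.5 CPM, with the other treated mice at 7.52 to 11.6 CPM and controls at 5.55 to 7.63 CPM. In kidney 1 of the 11 was called, Ptprb, the endothelial phosphatase that acts on Tek and Cdh5 (0.62 ± 0.15, adjusted p = 0.00829, edgeR), with a median of 0.42 over the list.

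**Figure D4:**
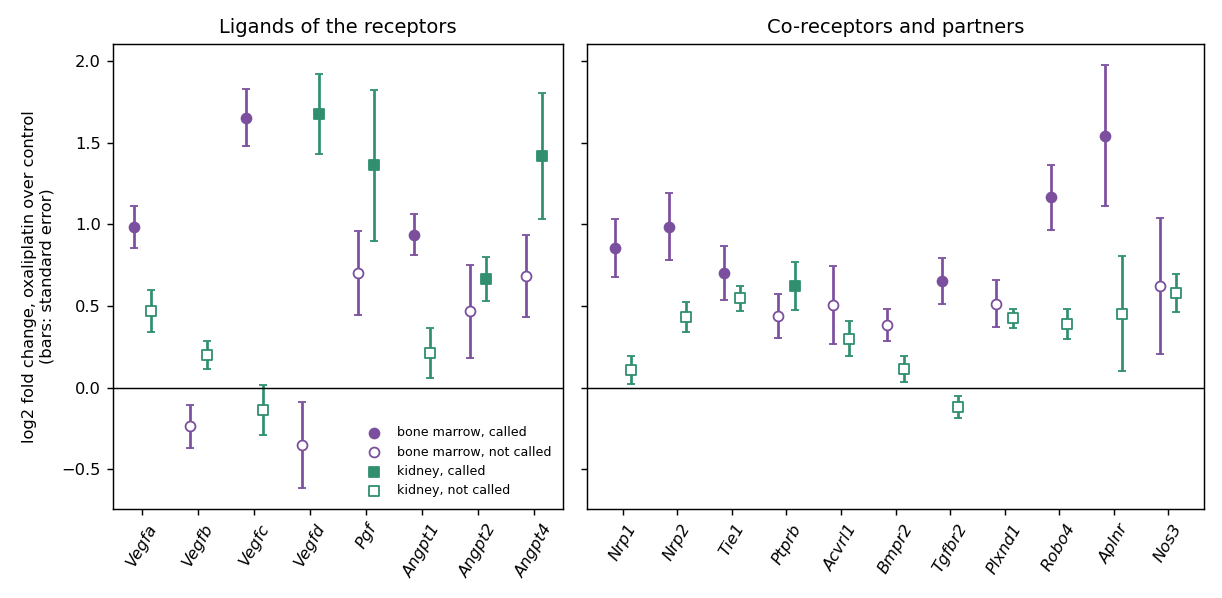
Log2 fold change, oxaliplatin over control, of the tested ligands (left) and of co-receptors and partners (right) in bone marrow (circles) and kidney (squares), with standard errors; filled symbols were called. Vegfc is filled in marrow at 1.65 and Vegfd in kidney at 1.68, and each is unfilled in the other tissue.

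Further genes of endothelial cells were read as lists. The shares of all genes called higher were 11.6% in marrow and 7.68% in kidney, and 23.3% and 11.5% in either direction. Of 12 genes common to most endothelium, 5 were called higher in marrow (median 0.40), led by the adhesion molecule Esam (1.13), the secreted Egfl7 (1.08), Ecscr (0.91) and Mmrn2 (0.90), and 3 in kidney (median 0.48), Icam2 (0.73), Clec14a (0.73) and Cd34 (0.72). Of 11 transcription factors, 5 were called higher in marrow, led by Sox7 (1.62), Sox17 (0.96), Sox18 (0.95) and Epas1 (0.84). The only one called lower was Tal1 (-0.62), which red cell precursors also use; it was picked after its value was seen. In kidney Hey1 (0.94) and Sox17 (0.71) were called and none was lower. The medians of the factors were 0.42 and 0.45.

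Vessel types were described by 4 short lists, beside shares of all genes called in either direction of 23.3% in marrow and 11.5% in kidney. Of 7 further sinusoidal genes, Stab1 (1.63) and Mrc1 (1.47) rose in marrow, both of which macrophages also make, and Dnase1l3 fell (-1.47). In kidney Lyve1 (2.28, from a mean of 0.175 CPM), Gpr182 (1.03) and Mrc1 (0.83) rose and Dnase1l3 fell, from a mean of 1.14 to 0.285 CPM. The sinusoidal medians were 0.32 in marrow and 0.51 in kidney. Of 7 arterial genes, Unc5b (1.37) and Gja5 (0.90) were called in marrow and Sema3g (1.29), Gja5 (0.93), Gja4 (0.90) and Efnb2 (0.67) in kidney, with medians of 0.60 and 0.86. Of 7 capillary genes 6 were called higher in marrow (median 1.93), led by Cav1 (4.07), Gpihbp1 (2.36), Ehd3 (2.01) and Plat (1.93), and Gpihbp1 (0.84) and Plat (0.67) in kidney (median 0.38). Cav1 is abundant in adipocytes as well as in vessels. Of 4 lymphatic genes measured, Prox1 rose (1.38) and Reln fell (-3.16) in marrow and Pdpn rose (0.62) in kidney.

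Genes of other cell types also changed, some up and some down, and their part in the members' changes was not tested. Beside these lists, 11.6% of all genes were called higher in marrow and 7.68% in kidney. Pericyte and smooth muscle genes, which mark the cells wrapped around vessels, were called higher in 5 of 10 in marrow and 7 of 10 in kidney, with none lower. Their sum was 179 to 207 CPM in control marrow and 285 to 419 CPM after oxaliplatin, and 202 to 240 CPM in control kidney and 384 to 720 CPM after. Leading genes were Des (2.81), Cspg4 (1.84), Kcnj8 (1.65) and Rgs5 (1.04) in marrow and Rgs5 (2.96), Abcc9 (2.11), Kcnj8 (1.72) and Myh11 (1.07) in kidney. In kidney the order of treated mice by this sum (5, 1, 4, 3 and 2, from the highest) was also their order by the sum of the 10 endothelial genes.

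In marrow all 7 adipocyte genes were called higher, from a summed 99.2 to 166 CPM in controls to 2384, 1111, 2462, 2602 and 537 CPM in oxaliplatin mice 1 to 5. Skeletal muscle genes, which are foreign to marrow, were called higher in 6 of 7. Their sums were 9.75 to 106 CPM in controls and 384, 322, 819, 44.8 and 365 CPM in treated mice 1 to 5. The 10 endothelial genes summed to 551 to 688 CPM in controls and to 1156, 787, 809, 1236 and 871 CPM in the same treated mice. Pecam1 is also made by platelets and leukocytes. Megakaryocyte and platelet genes were called higher in 7 of 10, with sums of 1740 to 2705 CPM in controls and 3187 to 4562 CPM after oxaliplatin, and macrophage genes in 4 of 9. Marrow stromal genes were called higher in 3 of 9, where 11.6% of all genes tested in marrow were. All 6 late erythroid genes fell, from 22775 to 40261 CPM in sum to 2712 to 7294 CPM.

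In kidney 3 of 4 genes of podocytes, the cells that face the glomerular capillaries, were called higher (Wt1, Synpo and Nphs1), with Podxl at 0.58. Their sum was 264 to 272 CPM in controls and 374 to 456 CPM after oxaliplatin. In marrow Podxl and Synpo, the 2 of these 4 genes tested there, both rose, and Nphs1 and Wt1 were under the filter. The marrow sum of the 4 was 26.9 to 34.2 CPM in controls and 102 to 177 CPM in treated mice. Kidney stromal genes were called higher in 5 of 8 and adipocyte genes in 4 of 6, the latter at 37.4 to 64.4 CPM in controls and 82.8 to 199 CPM in treated mice. Of 6 macrophage genes tested 5 fell. Of all genes tested in kidney, 7.68% were called higher and 11.5% in either direction. Proximal tubule genes were called lower in 1 of 5, skeletal muscle genes in 0 of 2 in either direction, megakaryocyte genes higher in 2 of 4 and erythroid genes higher in 1 of 5. In marrow 1 of 2 proximal tubule genes was lower. Defining genes at 0 in a whole group were 1 proximal tubule gene in control marrow, 1 megakaryocyte gene in each kidney group and 1 macrophage gene in treated kidney.

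**Figure D5:**
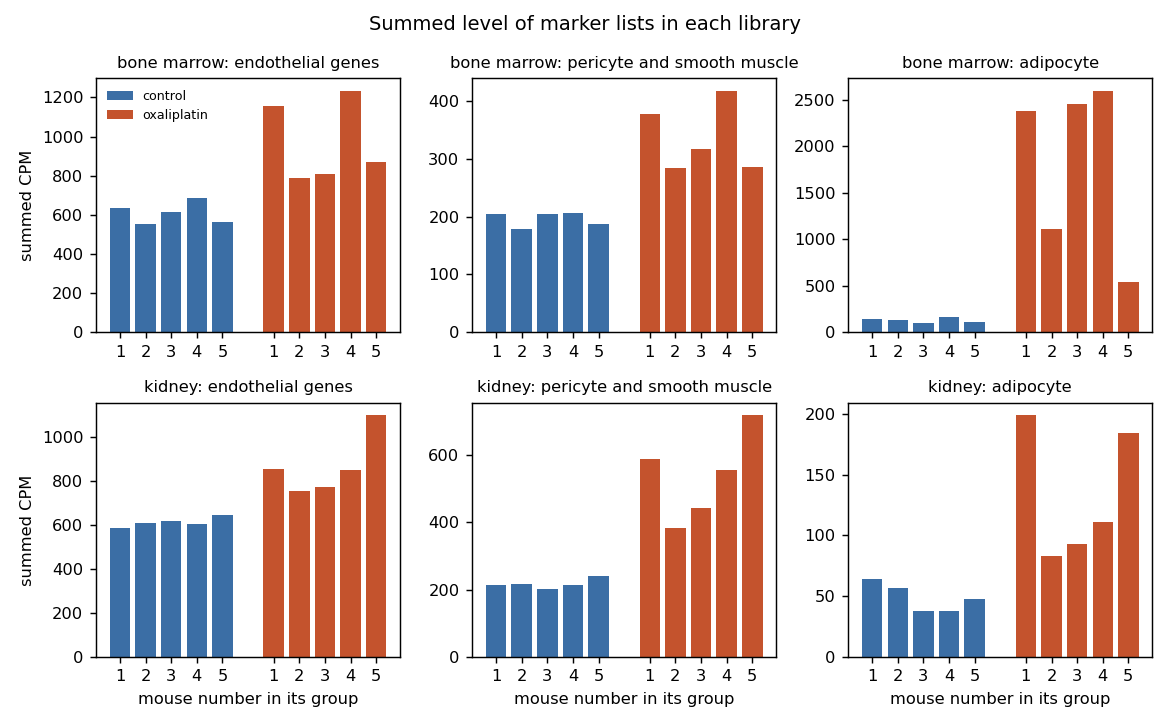
Summed CPM in each library, by mouse number within its group, for the 10 endothelial genes, for pericyte and smooth muscle genes, and for adipocyte genes, in marrow (top) and kidney (bottom). Every treated bar is above every control bar in all 6 panels, and in kidney mouse 5 is highest for endothelial (1099 CPM) and for pericyte and smooth muscle genes (720 CPM).

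Variation among mice of the same group was described with each group's mean subtracted, as the correlation of each member with the mean standardised profile of the other 9 over 10 libraries. In marrow r ran from 0.93 for Plvap to 0.56 for Tek and 0.48 for Flt1. Without the 2 libraries farthest from the median of the profile, oxaliplatin 1 and 4, the marrow values ran from 0.89 for Cdh5 to 0.38 for Flt1. In kidney 8 members had r from 0.70 to 0.90, Emcn had r = -0.0094 (Spearman's rho = 0.091) and Stab2 r = -0.71 (rho = -0.61). Without the 2 farthest libraries, oxaliplatin 5 and either 2 or 3, those 8 had r from 0.095 for Eng to 0.66 for Tek, Emcn was at 0.40 and Stab2 at -0.48, so the kidney values rested largely on those mice. The members share their libraries, scaling and depth, and no p is given.

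The non-members most like the mean profile of all 10 members in marrow were, among 15042 candidates, Fbn1, Pdgfrb, Nid1, Ctnnd2, Ece1, Dll4, Tmem44, Col4a1, Lamc1 and Gaa, with r from 0.94 to 0.97. Nid1, Col4a1 and Lamc1 encode parts of the basement membrane, Pdgfrb is the pericyte receptor and Dll4 a Notch ligand of arterial endothelium. Others on the list went elsewhere: Ctnnd2 was called lower after oxaliplatin (-0.78, adjusted p = 0.0071, edgeR) and Tmem44 was near 0 (0.0036). In kidney, among 13783 candidates, they were Ino80d, Usp54, Hipk1, Pik3r1, Pde3a, Map4, Tanc2, Nid1, Snrk and Sgms1, with r from 0.95 to 0.97. Without oxaliplatin 2 and 5 these kidney values ran from 0.75 for Snrk to 0.95 for Pik3r1. None of the kidney genes was in the marker lists used here. Nid1 was on both lists, and it was called higher in both tissues (adjusted p = 4.54e-05 in marrow and 3.92e-07 in kidney, edgeR).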

How the data were processed

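RNA from bone marrow and kidney was sequenced in 20 libraries, 5 for each tissue and treatment. For each tissue the authors deposited a table of raw counts, not normalized, with 1 row per gene. Alignment, per their methods, was by STAR 2.5.1a, and only unambiguous, uniquely aligned reads over genes of Ensembl 101 were counted, in Partek Flow. The submitters' processing notes give another STAR version and also name featureCounts and Salmon. The library chemistry is described in more than 1 way, and the strand setting is not given in the sources used here. Levels per length therefore carry any length bias of that protocol.

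Each table held 55774 lines, of which 287 repeated an identifier and 1 had a missing value; these were left out, leaving 55486 genes. The edgeR package 4.0.16 (limma 3.58.1, R 4.3.3) supplied the low-count filter (filterByExpr, minimum count 10), TMM scaling and the two-sided quasi-likelihood test with robust fitting. Models held treatment within a tissue, or tissue, treatment and their interaction across the 20 libraries. Calls required an adjusted p under 0.05 together with a change of more than 1.5-fold. CPM are TMM-scaled, log2 CPM use a prior count of 2, and lengths are unions of exons in GENCODE M21 (GRCm38). Contrasts with Cdh5 used an exact permutation test over every division into 5 and 5, counted at an adjusted p under 0.05 over the 9 contrasts of a tissue. Genes named besides the members were, per list and tissue, up to 4 of those called with the largest change, and the 10 genes most like the members' mean profile, where the mean log2 CPM was 1 or more. The members and lists were chosen with earlier results of these data known. Results of 1 marker gene are not reported here. The scripts were tested on simulated data. Alternatives were DESeq2 1.42.0, other scalings, filters, fold limits and prior counts, a replicate block, and leaving out each library. The paper's methods name mice of both sexes. In every library the Y-linked genes read were at 396 counts or more and Xist at 100 or fewer. A sex covariate was not run, since the libraries did not differ in sex-linked expression.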

Additional observations from a re-analysis of the deposited data

Results flagged for a closer look

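Kdr in oxaliplatin kidney 5 was at 135 CPM, with the other 4 treated mice at 89.2 to 97.1 CPM. Eng in the same library was at 223 CPM, with the others at 165 to 181 CPM. These were the 2 of 40 groups of 5 values (10 genes, 2 tissues, 2 treatments) in which the end value stood farther from its neighbour than Dixon's 95% limit allows, and chance alone is expected to give about that many. The same mouse held the highest kidney values of Flt1, Flt4, Pecam1, Cdh5, Plvap and Tek among treated mice.

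The change after oxaliplatin differed between tissues for 4 of the 10 members by the adjusted p of edgeR's interaction test, which 30.1% of all genes passed, as kidney minus marrow on the log2 scale. The difference was -1.20 for Emcn (adjusted p = 8.1e-05), -0.73 for Plvap (adjusted p = 0.00982), -0.60 for Flt4 (adjusted p = 0.00596) and 0.57 for Tek (adjusted p = 0.0219). Emcn and Plvap stayed called without any of the 20 libraries in turn. Flt4 slipped under 1.5-fold without any of 7 libraries, and Tek, under 1.5-fold here, passed it without any of 8. With at least 10 counts required in every library, Flt4 was at -0.50, under 1.5-fold, and Tek at 0.68, past it.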

How the results depend on the processing

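No member that was called changed direction under any alternative. Members called in marrow numbered 5 to 7 with 1 library left out, 4 at a fold limit of 2 and 8 with scaling by library size alone. Library size alone moved the median log2 fold change of all marrow genes from -0.04 to 0.11 and of kidney genes from 0.02 to 0.16, and the share of calls that were higher from 49.6% to 63.4% and from 66.8% to 82.7%. Kidney members called numbered 2 to 4 with 1 library left out (2 without oxaliplatin mouse 5), 0 at a fold limit of 2 and 8 with none, and interaction members 1 at a fold limit of 2. Genes called at a fold limit of 2 were 3231 in marrow, 941 in kidney and 3529 for the interaction, and 5679 in kidney without a fold limit. Members lower relative to Cdh5 in marrow numbered 0 to 5 with 1 library left out. They were 0 in each run without a control library, where the adjusted p of Tek and Pecam1 was 0.0714 and 126 divisions remained. With the mean of Cdh5, Pecam1 and Tie1 as reference, 3 contrasts passed in marrow (Tek lower, Emcn and Plvap higher) and 5 in kidney. No share of all genes was computed for that reference, so these counts cannot be read as particular to the members. Flt1 reversed in marrow (0.19), and Flt1 and Stab2 in kidney (0.013 and 0.092).

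Within a tissue, control and treated libraries of the same replicate number deviated from their group means with little correlation (-0.12 to 0.23 in marrow and -0.15 to 0.08 in kidney). The sample titles do not say whether marrow and kidney libraries of the same number came from the same mouse. The main fit across tissues treats all libraries as independent. With the replicate block, 5 members were called in marrow and 4 in kidney, and 0 contrasts with Cdh5 in either tissue, where the smallest possible p is 0.0625. Emcn in kidney, at -0.00034, took the other sign under library size alone (0.14), with almost no filter (0.00042), with at least 10 counts in every library (0.027) and in 5 runs with 1 library left out (0.018 to 0.060; range of all 10 runs -0.086 to 0.060), with adjusted p from 0.335 to 0.998. The interaction of Cdh5 went from -0.18 to 0.13 without oxaliplatin marrow 4 (-0.31 to 0.13 over the runs with 1 library left out). Of the other values of single genes 566 kept their direction and side of the threshold, 24 passed it and 11 fell under it. All members were counted in every library.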
